A study of Mus musculus with 2 samples.

Results

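Complex I, the NADH:ubiquinone oxidoreductase of the mitochondrial inner membrane, was described in mouse calf muscle through the nuclear genes named Nduf. A gene was taken where its symbol starts with Nduf and it has at least 1 transcript annotated as protein_coding, which gave 46 of the 55536 genes in the table. They hold 36 subunits of the complex, 8 assembly factors named Ndufaf, and Ndufa4 with its relative Ndufa4l2. Another 5 genes with such symbols have no protein_coding transcript and were not counted as members. The rule itself uses no measured value, though it was set with earlier results of these data known.

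The tissue was gastrocnemius, a calf muscle of mixed fibre types, from female B6Cast F1 mice of strain B6CASTF1/J, a first-generation cross of C57BL/6J and CAST/EiJ. The labels' description gives an age of 18 to 20 months, while their age field reads as not collected, and no treatment is named. The 2 total RNA-seq libraries, replicate 2 and replicate 1, form 1 group. Each was made from 300 ng of RNA and holds ERCC spike-ins, synthetic RNAs added as a standard. Both samples carry the same donor identifier, so that they come from separate animals rests on their labels as biological replicates, and the spread between them may be technical. With 1 group there is no treatment, genotype or age comparison, and 1 library against 1 allows no test of a difference. Values are therefore given for each library or as mean ± SD (n = 2), and the spread between replicates is described beside the same spread over all genes.

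Complex I takes electrons from NADH, passes them through a flavin and a chain of iron-sulfur clusters to ubiquinone, and pumps protons across the inner membrane as it does so. Its peripheral arm carries the NADH end and the quinone end, and its membrane arm holds the proton-pumping ND subunits, which are encoded by mitochondrial DNA. The nuclear genome supplies the catalytic core of the peripheral arm, the many accessory subunits around both arms, and the assembly factors, which help to build the complex and are not part of the finished enzyme. Muscle fibres with much oxidative metabolism are rich in mitochondria and so in this complex.

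Expected counts of genes summed to 43722892 in replicate 2 and 38654555 in replicate 1. All 10 fast fibre markers were among the abundant genes, with a median of 11668 TPM (a level per transcript length, out of a fixed total for each library) in replicate 2 and 12855 TPM in replicate 1, as the label of a limb muscle rich in fast fibres implies. The 10 slow fibre markers stood at a median of 274 TPM in replicate 2 and 50.5 TPM in replicate 1, and this difference between the libraries is given again beside the ratios of complex I genes. Endothelial, fibro-adipogenic, adipocyte, macrophage and erythrocyte markers were present in both libraries. In bulk RNA, fewer cells of a type and less RNA per cell cannot be told apart.

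Each of the 46 Nduf genes reached 1 TPM in both libraries. Their median was 165 TPM in replicate 2 and 136 TPM in replicate 1 (151 ± 20.3 TPM), against 8.10 TPM in replicate 2 and 8.84 TPM in replicate 1 for the 10015 protein-coding genes at or above 1 TPM in both. Of those coding genes, 96.6% in replicate 2 and 95.9% in replicate 1 lay below the median of the Nduf genes. Together the 46 genes took 1.82% of the TPM of nuclear protein-coding genes in replicate 2 and 1.45% in replicate 1. Levels were ordered almost identically in the libraries, with a Spearman rho of 0.990 across the 46 genes, which share the library and the tool and are not independent replicates.

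**Figure D1:**
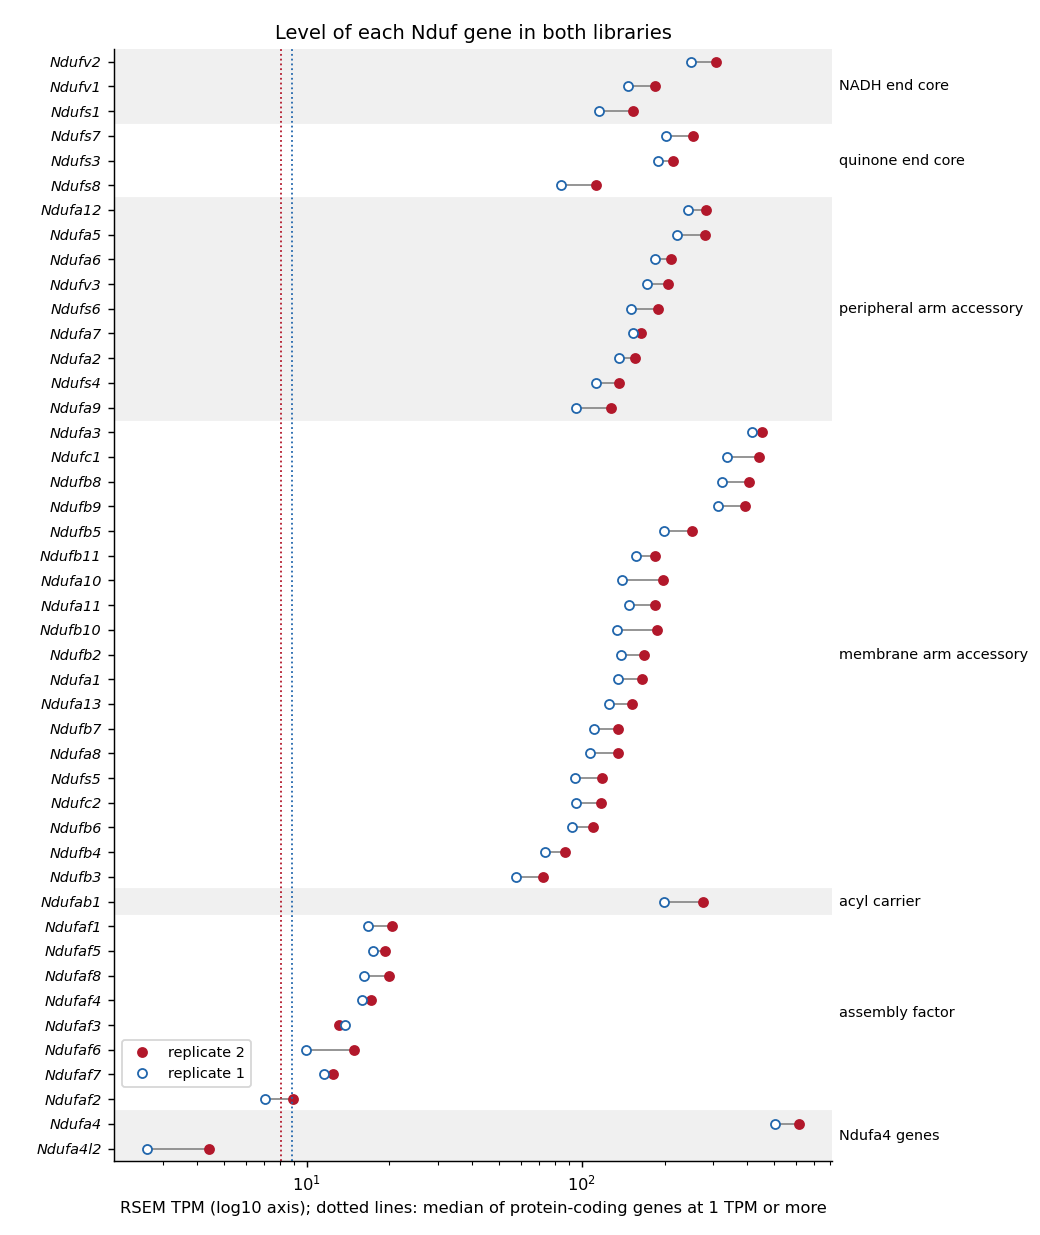
RSEM TPM of 45 of the 46 Nduf genes on a log10 axis, in replicate 2 (filled red) and replicate 1 (open blue), ordered by role and by mean level, with dotted lines at the median of 10015 protein-coding genes (8.10 TPM in replicate 2, 8.84 TPM in replicate 1). The subunits lie far to the right of those medians, the 8 assembly factors lie close to them, and Ndufaf3 is the one gene whose filled point is left of its open point.

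The 7 nuclear core subunits, which carry the flavin, the iron-sulfur clusters and the quinone site, had a median of 214 TPM in replicate 2 and 190 TPM in replicate 1. At the NADH end, Ndufv2, a subunit with an iron-sulfur cluster beside the flavin site, was at 307 TPM in replicate 2 and 249 TPM in replicate 1. Ndufv1, which binds NADH and the flavin, was at 185 TPM in replicate 2 and 147 TPM in replicate 1. Ndufs1, the long subunit that holds several clusters of the electron path, was at 153 TPM in replicate 2 and 116 TPM in replicate 1. The order of these partners was the same in both libraries, and the ranges of Ndufv2 and Ndufs1 did not overlap.

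At the quinone end, Ndufs7, the holder of the last cluster before ubiquinone, was at 253 TPM in replicate 2 and 202 TPM in replicate 1. Ndufs3, an early part of the quinone module, was at 214 TPM in replicate 2 and 190 TPM in replicate 1, so its range overlapped that of Ndufs7. Ndufs8, a ferredoxin-like subunit with clusters of the path, was the lowest core gene, at 113 TPM in replicate 2 and 84.0 TPM in replicate 1.

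The 9 accessory subunits of the peripheral arm had a median of 190 TPM in replicate 2 and 154 TPM in replicate 1. Ndufa12, a relative of the assembly factor Ndufaf2, led at 282 TPM in replicate 2 and 244 TPM in replicate 1. Ndufa5 of the quinone module followed at 280 TPM in replicate 2 and 221 TPM in replicate 1, and these neighbours in the order did not differ beyond their spread. Ndufa6, which binds a copy of the acyl carrier protein, was at 211 TPM in replicate 2 and 185 TPM in replicate 1. The middle of the group held Ndufv3 (189 ± 23.5 TPM), Ndufs6 (170 ± 27.6 TPM) and Ndufa7 (159 ± 7.22 TPM). Its lower end held Ndufa2 of the NADH module at 156 TPM in replicate 2 and 137 TPM in replicate 1. Ndufs4, whose loss in mice is a model of Leigh syndrome, was at 137 TPM in replicate 2 and 113 TPM in replicate 1. Ndufa9, which sits where the arms meet, was lowest by RSEM at 128 TPM in replicate 2 and 95.5 TPM in replicate 1. By kallisto Ndufa2 was lower, at 139 TPM in replicate 2 and 122 TPM in replicate 1. Ndufa9 was at 173 TPM in replicate 2 and 142 TPM in replicate 1 by kallisto.

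The 19 accessory subunits of the membrane arm had the widest range, with a median of 168 TPM in replicate 2 and 136 TPM in replicate 1. Ndufa3, a small membrane subunit near the root of the arm, was highest by RSEM at 452 TPM in replicate 2 and 415 TPM in replicate 1. Ndufc1 was at 439 TPM in replicate 2 and 336 TPM in replicate 1. Ndufb8, of the far end of the arm, was at 407 TPM in replicate 2 and 323 TPM in replicate 1. The range of Ndufc1 overlapped those of Ndufa3 and Ndufb8, which did not overlap each other. At the other end, Ndufb3 (chromosome 1) was lowest by RSEM at 72.6 TPM in replicate 2 and 57.9 TPM in replicate 1. Next came Ndufb4 at 86.6 TPM in replicate 2 and 73.6 TPM in replicate 1. This level depends on the tool and on how reads are shared with a copy, as described below. Ndufb6 was at 110 TPM in replicate 2 and 92.1 TPM in replicate 1. The remaining genes of the group lay between 106 ± 14.9 TPM for Ndufc2 and 353 ± 56.6 TPM for Ndufb9, another partner of the acyl carrier protein.

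The acyl carrier protein itself, Ndufab1, which also serves mitochondrial fatty acid synthesis, was at 277 TPM in replicate 2 and 199 TPM in replicate 1. Across all 36 subunits the mean level ran from 65.2 ± 10.4 TPM for Ndufb3 to 433 ± 26.2 TPM for Ndufa3, a 6.64-fold range, and 28 of the 36 lay between 100 and 300 TPM. By kallisto the range over the same subunits was 5.30-fold.

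The 8 Ndufaf assembly factors were far lower than the subunits, with a median of 16.0 TPM in replicate 2 and 14.9 TPM in replicate 1, and their levels did not overlap those of the subunits. Ndufaf1, a member of the assembly complex that builds the membrane arm, was at 20.5 TPM in replicate 2 and 16.7 TPM in replicate 1. Ndufaf5, which in human cells modifies an arginine of the Ndufs7 protein, was at 19.3 TPM in replicate 2 and 17.4 TPM in replicate 1. Ndufaf8, described in human cells as a partner of Ndufaf5, was at 20.0 TPM in replicate 2 and 16.1 TPM in replicate 1. These 3 highest factors by RSEM overlapped in range. By kallisto Ndufaf3 was above Ndufaf5, at 30.5 TPM in replicate 2 and 34.4 TPM in replicate 1. Ndufaf5 was at 25.8 TPM in replicate 2 and 23.9 TPM in replicate 1 by kallisto. Ndufaf4 and Ndufaf3, which in human cells act together on the quinone module, stood at 16.6 ± 0.870 TPM and 13.5 ± 0.495 TPM.

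Among the lowest factors, Ndufaf6 was at 14.9 TPM in replicate 2 and 9.91 TPM in replicate 1. Ndufaf7, a methyltransferase of mitochondria, was at 12.5 TPM in replicate 2 and 11.6 TPM in replicate 1. Ndufaf2, which in human cells holds the place of Ndufa12 during assembly, was lowest at 8.92 TPM in replicate 2 and 7.05 TPM in replicate 1. Even this factor had 170 expected counts in replicate 2 and 122 in replicate 1. The 10 assembly factors listed under other names had a median of 14.3 TPM in replicate 2 and 11.3 TPM in replicate 1, close to that of the Ndufaf genes. They were led by Ecsit, which acts with Ndufaf1, at 39.1 TPM in replicate 2 and 35.9 TPM in replicate 1, while Nubpl, an iron-sulfur cluster carrier for complex I, was at 1.94 TPM in replicate 2 and 2.60 TPM in replicate 1.

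The last members do not belong to complex I by present knowledge. Ndufa4, whose product is counted with complex IV, was the highest Nduf gene at 618 TPM in replicate 2 and 505 TPM in replicate 1. Its relative Ndufa4l2, known as a gene induced by low oxygen, was the lowest at 4.42 TPM in replicate 2 and 2.63 TPM in replicate 1, on 110 expected counts in replicate 2 and 61 in replicate 1. Both levels were in the range of neither the subunits nor the assembly factors.

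Of the Nduf genes without a protein_coding transcript, Ndufb1-ps (chromosome 12) is annotated as a bidirectional_promoter_lncRNA and was at 100 TPM in replicate 2 and 93.9 TPM in replicate 1, within the range of the subunits. The processed pseudogenes Ndufa11b, Ndufab1-ps and Ndufs6b were at 0.260 TPM or below in each library. The processed pseudogene Ndufb4c (chromosome 15, 73809507 to 73809896 in mm10) was listed at 240 TPM in replicate 2 and 200 TPM in replicate 1, above its source gene Ndufb4 (chromosome 16).

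All 390 bases of Ndufb4c are identical to bases 95 to 484 of the transcript Ndufb4-201 in GENCODE M21. A read of 100 bases from within that stretch cannot be placed on either locus by its sequence. The first 100 bases of the shared stretch show this, with the start codon in capitals:
Ndufb4-201, bases 95 to 194, and Ndufb4c-201, bases 1 to 100: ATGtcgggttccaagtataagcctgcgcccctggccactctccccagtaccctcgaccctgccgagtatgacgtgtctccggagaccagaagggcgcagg

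RSEM gave Ndufb4c 63.7% of the pair's expected counts in replicate 2 and 63.6% in replicate 1. Kallisto listed Ndufb4c at 0 in both libraries and gave Ndufb4 393 TPM in replicate 2 and 309 TPM in replicate 1, which were 4.54 times the RSEM value in replicate 2 and 4.19 times in replicate 1. The sum of both loci by RSEM was 327 TPM in replicate 2 and 273 TPM in replicate 1. By both tools most of the Ndufb4 level was placed on a retained_intron transcript and not on a coding one, as given below. The place of Ndufb4 near the bottom of the membrane arm therefore holds for RSEM only. The split of reads alone did not make up the ratio between the tools. Kallisto counts for Ndufb4 were 163% of those by RSEM in replicate 2 and 161% in replicate 1. The effective length, by which a count is divided, was 176 bases by kallisto and 461 by RSEM in replicate 2. In replicate 1 it was 197 bases by kallisto and 452 by RSEM.

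Altogether 10 Nduf genes share at least 1 stretch of 100 bases with a transcript of another gene, and the levels of these genes are uncertain for that reason. The share of such stretches is taken over all annotated transcripts of a gene. It does not measure how uncertain the level is. After Ndufb4, the largest shares of 100-base stretches were those of Ndufs5 with the pseudogene BC002163 (12.7%) and Ndufa12 with the pseudogene Gm15920 (11.4%). Ndufb9 came next with Gm49356 (11.1%), which is annotated as protein_coding on chromosome 15 and not as a pseudogene. BC002163 was listed by RSEM at 73.7 TPM in replicate 2 and 70.5 TPM in replicate 1 and by kallisto at 0. Some other genes with shared stretches were higher by kallisto. Gm15920 was at 78.4 TPM in replicate 2 and 58.3 TPM in replicate 1 by RSEM, and at 172 TPM in replicate 2 and 115 TPM in replicate 1 by kallisto. Gm49356 was at 2.76 TPM in replicate 2 and 2.40 TPM in replicate 1 by RSEM, and at 99.5 TPM in replicate 2 and 90.6 TPM in replicate 1 by kallisto. Gm4459, which shares stretches with Ndufab1, was at 5.80 TPM in replicate 2 and 2.93 TPM in replicate 1 by RSEM, and at 98.6 TPM in replicate 2 and 70.5 TPM in replicate 1 by kallisto. Of the 8 Nduf genes with a fractional expected count, 7 were among these 10. Genes with shared stretches were not counted outside the Nduf set, so whether the number is unusual was not tested.

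The tools differed for genes without such shared stretches as well. Kallisto TPM exceeded RSEM TPM in both libraries for 40 of the 46 genes, with a median ratio of 1.45 in replicate 2 and 1.56 in replicate 1, beside 1.30 in replicate 2 and 1.38 in replicate 1 over 9982 coding genes. The ratio passed 1.5 in both libraries for 19 Nduf genes, a count that was not made over the coding genes. After Ndufb4, the farthest were Ndufaf3 (2.32 in replicate 2 and 2.49 in replicate 1), Ndufs5 (2.11 in replicate 2 and 2.13 in replicate 1) and Ndufb5 (2.02 in replicate 2 and 2.17 in replicate 1). Ndufs3 (2.00 in replicate 2 and 1.91 in replicate 1) and Ndufv2 (1.91 in replicate 2 and 2.07 in replicate 1) came next. In the other direction, Ndufa3 alone was lower by kallisto by as much, at 299 TPM in replicate 2 and 195 TPM in replicate 1. The rank of Ndufa3 as the highest subunit therefore holds for RSEM only. Ranks of other genes are by RSEM as well where no tool is named. The effective length, by which a count is divided to give a level, had a median over the genes of 614 bases in RSEM and 354 bases in kallisto in replicate 2. Counts assigned by kallisto were under 66.7% of those by RSEM in both libraries for 8 genes, and the smallest share was that of Ndufa1, at 29.0% in replicate 2 and 21.6% in replicate 1. Across the genes the tools' levels had a Spearman rho of 0.892 in replicate 2 and 0.879 in replicate 1, over genes of the same reads.

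**Figure D2:**
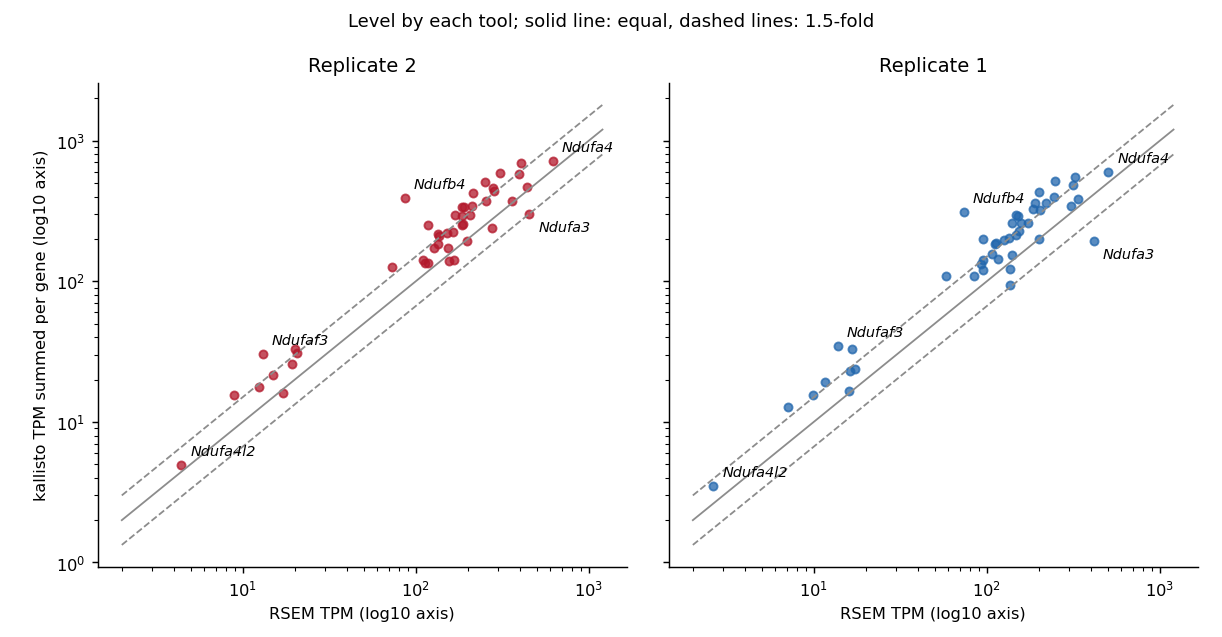
Kallisto TPM summed per gene against RSEM TPM for the 46 Nduf genes in replicate 2 (left) and replicate 1 (right), log10 axes, with a solid line of equal values and dashed lines at 1.5-fold. Most points lie above the solid line, Ndufb4 lies highest above it (4.54 times in replicate 2, 4.19 times in replicate 1) and Ndufa3 below it in both.

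The 46 genes have 226 annotated transcripts, and 6 genes have a single one. By RSEM the top transcript took under 90% of the gene's TPM in 26 genes. Among those with high levels, the protein-coding Ndufv2-201 took 88.9% in replicate 2 and 90.4% in replicate 1, and Ndufb8-201 took 76.8% in replicate 2 and 72.3% in replicate 1. Ndufa4-204 took 86.0% in replicate 2 and 86.8% in replicate 1 by RSEM, where kallisto gave it 8.65% in replicate 2 and 0% in replicate 1 and favoured Ndufa4-205. Kallisto and RSEM named the same top transcript for 29 of the 40 genes with several. The counts in this paragraph were not made for other genes, so they describe the Nduf genes without a background.

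A top transcript that is not annotated as coding was found for 9 genes by RSEM, for 11 by kallisto, and for 8 by both. Such genes were not counted outside the Nduf set. Whether these numbers are particular to the Nduf genes was therefore not tested. Ndufa5-204, a processed_transcript of 453 bases, took 58.0% of Ndufa5 in replicate 2 and 58.8% in replicate 1. Ndufc1-203, a retained_intron transcript, took 62.5% of Ndufc1 in replicate 2 and 64.7% in replicate 1 by RSEM. Kallisto gave it 0% in both libraries and gave the processed_transcript Ndufc1-202 96.9% in replicate 2 and 96.8% in replicate 1. For Ndufs4, the transcript Ndufs4-204 of the nonsense_mediated_decay class took 68.5% in replicate 2 and 72.4% in replicate 1. For Ndufa3, another of that class, Ndufa3-204, took 91.6% in replicate 2 and 93.9% in replicate 1 by RSEM, against 15.3% in replicate 2 and 0% in replicate 1 by kallisto. For Ndufb4, the retained_intron transcript Ndufb4-202 took 81.2% in replicate 2 and 82.9% in replicate 1 by RSEM. Kallisto gave it 93.7% in replicate 2 and 88.3% in replicate 1. For Ndufab1, the retained_intron transcript Ndufab1-205 took 32.7% in replicate 2 and 33.9% in replicate 1 by RSEM. Kallisto gave it 80.1% in replicate 2 and 78.3% in replicate 1. Where transcripts of a gene share exons, these shares are each tool's assignment of the shared reads.

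Between the libraries, the share of the top transcript changed by a median of 1.10 percentage points by RSEM and 3.75 points by kallisto, over genes with several transcripts and each tool's own top transcript. The largest change by RSEM was 13.7 points, in Ndufaf8, where Ndufaf8-203 took 66.8% in replicate 2 and 53.1% in replicate 1. The gene had 265 counts in replicate 2 and 224 in replicate 1. By kallisto the largest change was 39.2 points, also in Ndufaf8, where Ndufaf8-202 took 81.7% in replicate 2 and 42.5% in replicate 1, followed by Ndufs5, where Ndufs5-201 took 58.5% in replicate 2 and 27.2% in replicate 1.

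**Figure D3:**
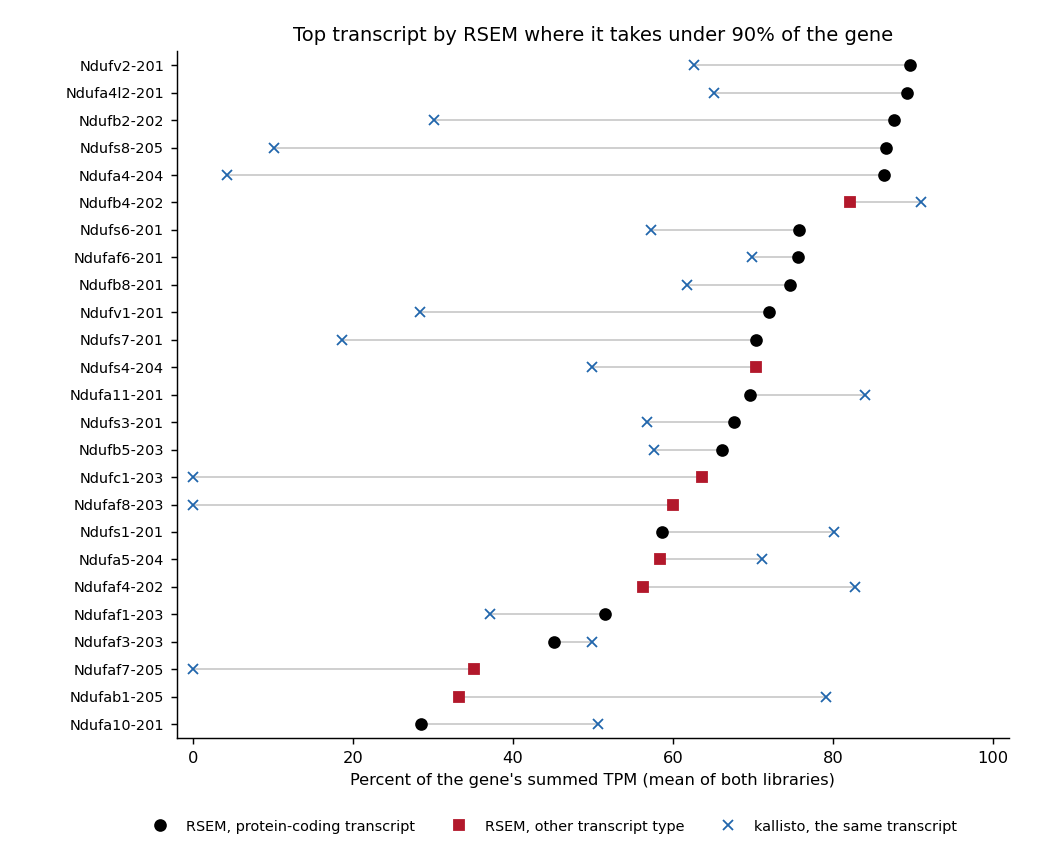
Percent of the gene's TPM taken by the transcript that RSEM ranks first, for 25 of the 26 Nduf genes where it takes under 90%, as the mean of both libraries. Circles (protein-coding) and squares (other types) are RSEM, crosses are the same transcript by kallisto; long connecting lines such as those of Ndufa4-204 and Ndufs8-205 mark genes where the tools assign the reads to different transcripts.

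Between the libraries, every Nduf gene was higher in replicate 2 on TMM-scaled counts, by a similar amount. The log2 ratio of replicate 2 over replicate 1 was above 0 for 46 of 46 genes, where 49.8% of the 12969 genes tested were above 0. The median was 0.44, with an SD over the genes of 0.12 and a range from 0.21 for Ndufaf8 to 0.80 for Ndufa4l2, beside a median of 0.00 and an SD of 0.51 over all genes. The summed counts, 171071 in replicate 2 and 122128 in replicate 1, gave 1.37-fold (95% counting interval 1.36 to 1.38). Intervals cover counting error only, not the spread between animals.

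The ratios were small but tight. Among the 36 subunits the median was 0.47 and the SD 0.09, with a range from 0.23 to 0.63. The 696 other protein-coding genes in the same range of TPM had a median of 0.07 and an SD of 0.44, and 59.9% of them were above 0. By role, the medians were 0.47 for the 7 core subunits, 0.42 for the peripheral accessory group, 0.47 for the membrane group and 0.29 for the assembly factors. Whether the assembly factors differ from the subunits was not tested, and their ranges overlapped.

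At 1.5-fold or more, 3 of 46 genes (6.52%) were higher in replicate 2, near the 7.55% of all genes. At 2-fold in either direction there were 0 of 46, against 4.96% of all genes. An interval wholly above 1 was found for 44 of 46 genes (95.7%), against 24.1% of all genes and 51.4% of the 696 coding genes in the subunits' range of TPM. Counting intervals are narrower at high counts. With total counts or spike-in totals it was found for 39 of 46, against 13.9% of all genes with total counts and 10.6% with spike-in totals. Most of these differences thus exceeded counting error without being large.

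The 3 genes past 1.5-fold were Ndufa4l2, Ndufb10 and Ndufab1 on RSEM counts. On kallisto counts Ndufab1 was below it (log2 ratio 0.48, against 0.60 by RSEM) and Ndufa1 was past it (0.86, against 0.44 by RSEM). Ndufa4l2 was 1.77-fold higher (1.28 to 2.46) on few counts. Ndufb10, a membrane arm subunit facing the intermembrane space, had 3864 counts in replicate 2 and 2451 in replicate 1, 1.54-fold (1.47 to 1.63). Ndufab1 was 1.52-fold higher (1.44 to 1.60), and Ndufs8 and Ndufaf6 came next, both with a log2 ratio of 0.58. The lowest ratios were those of Ndufaf8 (1.16-fold, 0.966 to 1.39), Ndufa7 (1.18-fold, 1.11 to 1.25), Ndufaf3 (1.18-fold, 0.998 to 1.39), Ndufaf7 (1.20-fold, 1.03 to 1.40) and Ndufaf4 (1.21-fold, 1.10 to 1.34). In TPM, 45 of 46 genes were higher in replicate 2, and Ndufaf3 was the exception, at 13.1 TPM in replicate 2 and 13.8 TPM in replicate 1.

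**Figure D4:**
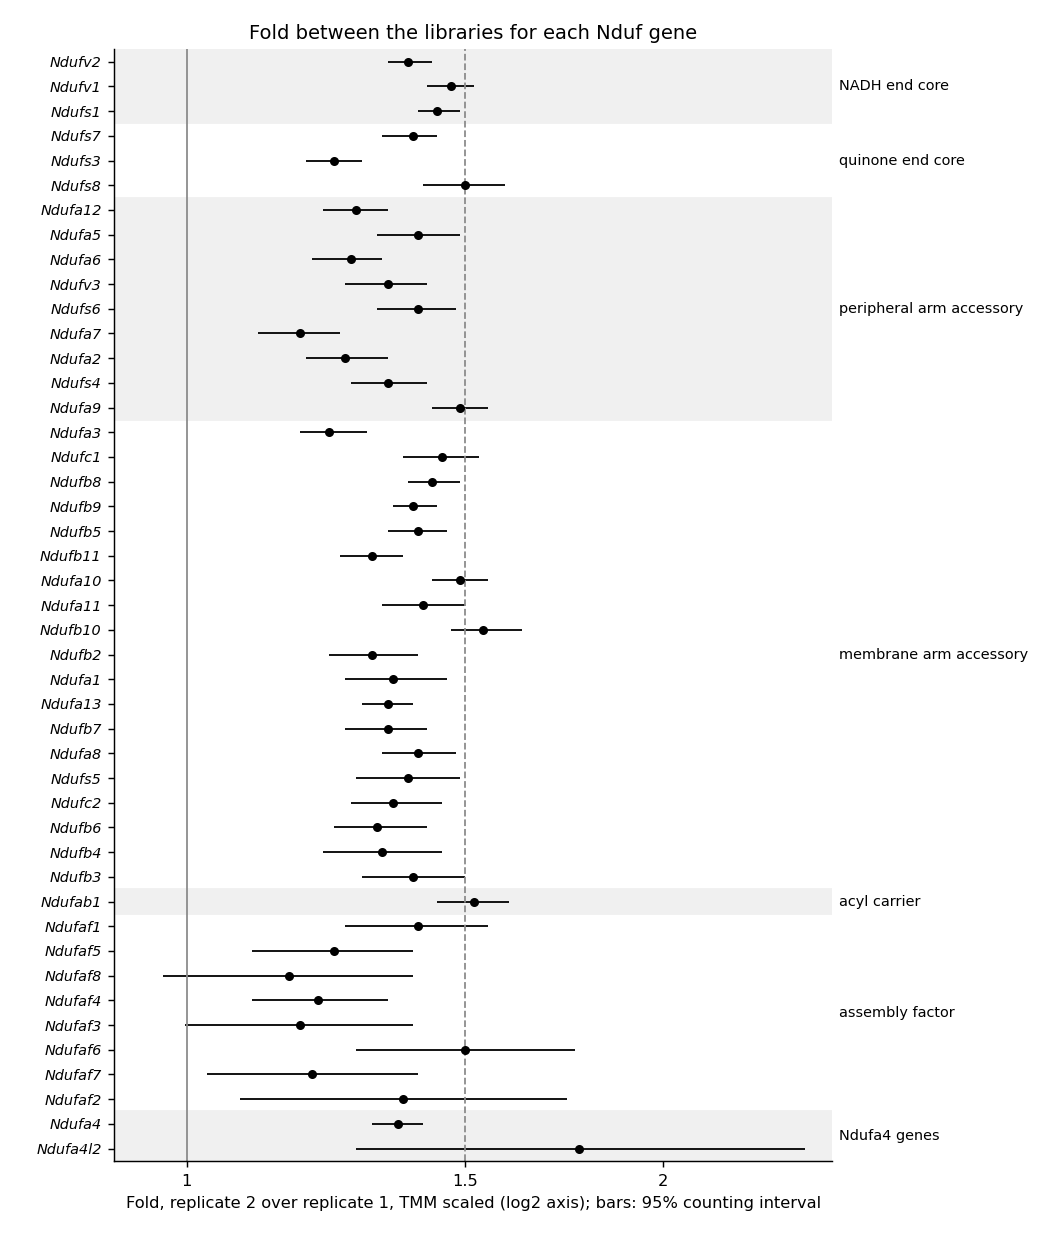
Fold of TMM-scaled counts, replicate 2 over replicate 1, on a log2 axis for 45 of the 46 Nduf genes, with 95% counting intervals; the solid line is 1 and the dashed line 1.5. All points lie right of 1, all intervals except those of Ndufaf8 and Ndufaf3 do so wholly, and the widest interval is that of Ndufa4l2 (1.28 to 2.46).

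The size of the difference depended on the scaling. With total counts the median of the Nduf genes was 0.30 and that of all genes -0.15, and with spike-in totals 0.22 and -0.22. The Nduf genes stood 0.44 above all genes in each of these, as with TMM. A scaling shifts all genes together, so this distance could not have changed and adds no support. With spike-in totals 45 of 46 remained above 0, against 23.6% of all genes, and Ndufaf8 was the exception. With total counts it was 46 of 46, against 30.4% of all genes.

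The mitochondrially encoded ND genes, whose products form the membrane core of the same complex, were much more abundant, with a median of 5681 TPM in replicate 2 and 4607 TPM in replicate 1. The highest was mt-Nd1 at 9546 TPM in replicate 2 and 8002 TPM in replicate 1. All 7 were higher in replicate 2 on scaled counts, with a median log2 ratio of 0.40, which lies inside the range of the nuclear subunits. By kallisto, mt-Nd3 was at 4127 TPM in replicate 2 and 11.1 TPM in replicate 1, so levels of single short mitochondrial genes depend on the tool.

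Median ratios of the other respiratory complexes lay inside the range of the complex I subunits (0.23 to 0.63), while some single genes lay above it. The highest log2 ratios were those of Cox7a1 of complex IV (1.05) and Sdhb of complex II (0.79). The median log2 ratio was 0.55 over 4 genes of complex II, 0.51 over 9 of complex III, 0.58 over 11 of complex IV and 0.49 over 15 of complex V, and each of these genes was above 0. The 12 genes of the tricarboxylic acid cycle had a median of 0.39, all above 0. Whether complex I differs from these lists was not tested. Assembly factors under other names were lower, with a median of 0.21 and 8 of 10 above 0. Foxred1, an oxidoreductase needed for complex I assembly, was at 6.38 TPM in replicate 2 and 9.30 TPM in replicate 1, a log2 ratio of -0.23.

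Regulators of these genes differed among themselves. Of 9 listed, 6 had a ratio above 0, and the median was 0.12. Esrrg, an orphan receptor of oxidative muscle, was at 8.64 TPM in replicate 2 and 3.76 TPM in replicate 1 (log2 ratio 1.58), and Esrra at 33.5 TPM in replicate 2 and 24.7 TPM in replicate 1 (0.61). Ppargc1a, a coactivator of mitochondrial genes, had a log2 ratio of 0.56. Nrf1, Yy1 and Gabpa, factors that bind promoters of respiratory genes, had ratios of -0.22, -0.18 and -0.12.

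Markers of slow fibres were higher in replicate 2 too, and by more. The ratio was above 0 for all 10, the median log2 ratio was 2.52, and their summed level was 2596 TPM in replicate 2 and 507 TPM in replicate 1. Myh7, the slow myosin heavy chain, was at 409 TPM in replicate 2 and 65.8 TPM in replicate 1. The 10 fast fibre markers summed to 119849 TPM in replicate 2 and 128654 TPM in replicate 1, with 6 of 10 above 0 and a median of 0.05. Endothelial markers had a median of -0.38 (2 of 6 above 0), macrophage markers -0.15 (3 of 6) and erythrocyte markers 0.01 (3 of 5). Adipocyte markers had a median of 0.34 (5 of 5) and fibro-adipogenic markers 0.73 (5 of 6). The fibro-adipogenic list was split, and no gene lay near its median. The collagen genes Col3a1, Col1a1 and Col1a2 were at 1.87, 1.70 and 1.36, while Pdgfra and Gsn were at 0.10 and Dcn at -0.19. None of the listed markers was at 0 counts in both libraries. Their part in the complex I ratio was not tested.

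**Figure D5:**
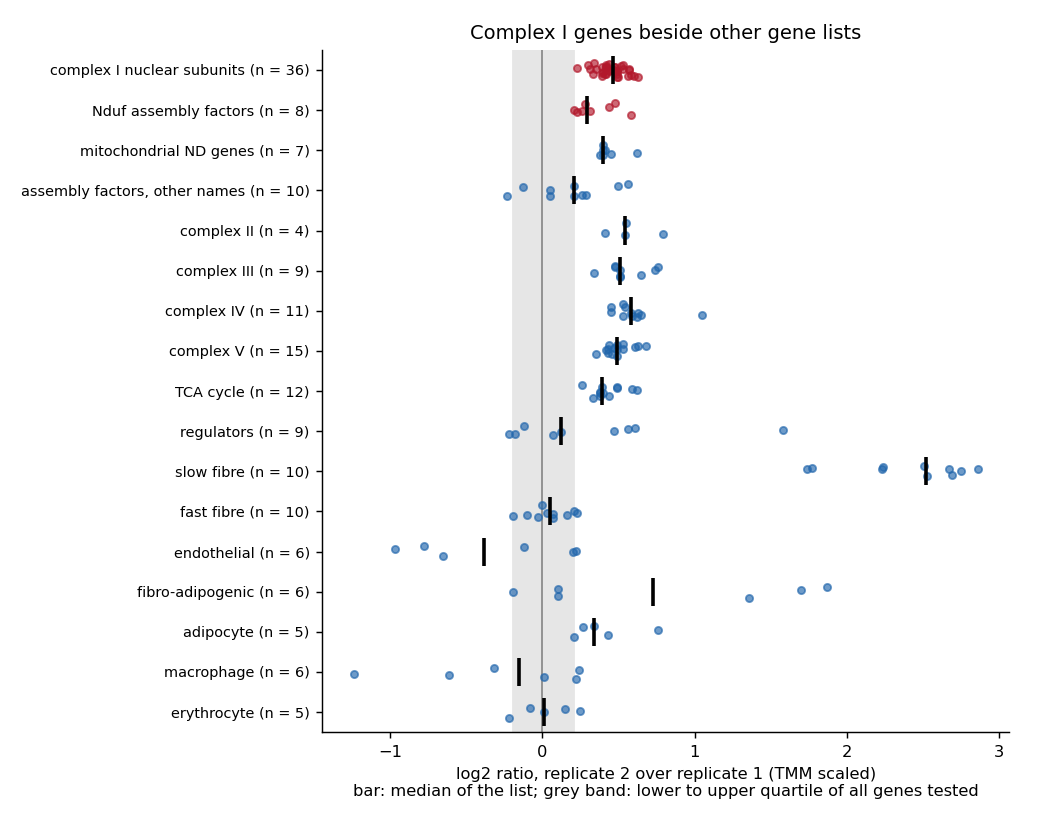
Log2 ratio of replicate 2 over replicate 1 for the genes of each list, with the list's median as a black bar; the grey band runs from the lower to the upper quartile of all 12969 genes tested. The complex I subunits (red, median 0.47) sit among complexes II to V and the tricarboxylic acid cycle, right of the band, and slow fibre markers lie farthest right (median 2.52).

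Promoters from RefSeq (GRCm38.p6, from 250 bases before to 50 bases after the start site) were matched for 40 of the 46 genes. They were searched on both strands for 7-letter motifs of factors known at respiratory gene promoters: GCATGCG for part of an NRF1 site, CCGGAAG for the ETS factor GABPA, AAGATGG for YY1 and AAGGTCA for part of an ERR site. The NRF1 letters and their reverse complement overlap, so a palindromic site counts on both strands. At least 1 motif was found in 52.5% of the Nduf genes, beside 34.7% of tested coding genes and 23.8% of all genes with a promoter in the table. Motifs of 2 or more kinds were found in 2.50% (1 gene), beside 4.54% of tested coding genes and 2.29% of all.

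By motif, YY1 was found for 20.0% of the Nduf genes (8.59% of tested coding genes, 7.28% of all), NRF1 for 12.5% (7.42% and 4.01%), ETS for 15.0% (20.4% and 9.93%) and ERR for 7.50% (3.74% and 5.38%). These shares rest on 8, 5, 6 and 3 genes. A match is a run of letters and no evidence that a factor binds there.

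The 8 YY1 matches had a position in common, which was seen after the search. All 8 read as written on the gene's strand and began 11 to 39 bases after the start site, within the 50 bases that the window holds there. A match in this place and direction was held by 19.0% of the 42 Nduf promoters (Ndufa5 and Ndufa7 have 2 each), 2.48% of those of tested coding genes and 1.30% of all. Each was followed by C, and in 7 of 8 the ATG inside the motif is an annotated start codon, Ndufaf8 being the exception. The windows of 30 bases around them show this, with the motif in capitals:
Ndufs7, chr10:80249462-80249491, plus strand: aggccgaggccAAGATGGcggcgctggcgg
Ndufs4, chr13:114388045-114388074, minus strand: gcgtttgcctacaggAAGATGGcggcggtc
Ndufs6, chr13:73328433-73328462, minus strand: aagggtcaccggcAAGATGGcggcggtgct
Ndufa9, chr6:126849097-126849126, minus strand: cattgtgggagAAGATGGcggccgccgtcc
Ndufa3, chr7:3617384-3617413, plus strand: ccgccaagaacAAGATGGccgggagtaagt
Ndufb8, chr19:44555393-44555422, minus strand: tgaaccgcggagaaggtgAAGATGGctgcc
Ndufc1, chr3:51408915-51408944, minus strand: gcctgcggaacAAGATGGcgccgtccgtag
Ndufaf8, chr11:120098933-120098962, plus strand: aggcagggcccAAGATGGcggcgccctcga

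The 7 genes with the start codon inside the match include core, peripheral and membrane subunits. This run of letters is also the core of an element known to direct translation from short leaders, so the motif search alone cannot tell such uses apart. The 5 promoters with an NRF1 match are shown likewise, with matches on both strands that overlap in every window except that of Ndufa6:
Ndufa8, chr2:36049329-36049358, minus strand: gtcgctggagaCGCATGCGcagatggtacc
Ndufa11, chr17:56717692-56717721, plus strand: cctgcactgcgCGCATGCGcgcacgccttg
Ndufa6, chr15:82354356-82354385, minus strand: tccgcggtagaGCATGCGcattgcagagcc
Ndufaf4, chr4:24897960-24897989, plus strand: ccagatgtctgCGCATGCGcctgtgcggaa
Ndufaf5, chr2:140170652-140170681, plus strand: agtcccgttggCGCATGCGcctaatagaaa

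The genes are spread over 17 chromosomes, with at most 6 on a chromosome (17) and 2 on X. A protein-coding gene on the other strand starts within 1000 bases of the start of 21 of the 46 (45.7%), against 17.5% of the 10015 coding genes. Ndufs1 and Eef1b2, an elongation factor subunit, start 8 bases apart, and Ndufa7 and Rps28, a ribosomal protein gene, start 10 bases apart. Levels of such partners ranged from close to far apart, and Rps28 and Eef1b2 were the highest of all the partners. The next highest, Asb15 beside Ndufa5, was at 35.6 TPM in replicate 2 and 26.1 TPM in replicate 1. Eef1b2 was at 150 TPM in replicate 2 and 177 TPM in replicate 1, beside 153 TPM in replicate 2 and 116 TPM in replicate 1 for Ndufs1. Rps28 was at 257 TPM in replicate 2 and 295 TPM in replicate 1, and Morn5, 52 bases from Ndufa8, was at 0.0500 TPM in replicate 2 and 0 TPM in replicate 1.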

How the data were processed

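Expected counts and TPM per gene and transcript were deposited under RSEM's column names, per the file headers. The notes deposited with each library derive them from alignments to the transcriptome and name mm10 and GENCODE M21. A second deposited table per transcript is of the kind kallisto writes, per the file headers, with estimated counts and TPM from the reads. Which aligner and which versions ran is not given in the sources used here. TPM by RSEM includes spike-in rows. The reference is that of C57BL/6J, and alleles of the cross were not separated.

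Values from kallisto were added up per gene. Rounded expected counts of genes whose counts in both libraries sum to 50 or more were scaled by TMM in edgeR 4.0.16 (R 4.3.3), and ratios are differences of log2 CPM with prior count 2. DESeq2 1.42.0 supplied other size factors. The 95% intervals of folds are conditional binomial and exact; they cover counting error only, as reads lack molecular identifiers. No test between libraries was made. The ratio step was tested on simulated data with 200 changed genes. Python 3.11.15, pandas 2.3.3, scipy 1.17.1 and Biopython 1.88 were also used. Transcript sequences are those of GENCODE M21 and promoters those of RefSeq.

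Members and lists were chosen with earlier results of these data known. Named are the core subunits, the 3 highest and 3 lowest members of each other role, the 5 highest and 5 lowest ratios, the 6 genes farthest apart between the tools and the 6 highest genes with a top transcript under 90%; others were picked after their values were seen, and so were the sequences printed. Alternatives were other scalings, count minimums, prior counts and estimates, other TPM minimums, and each library alone. A planned comparison of protein sequences was not made, and 1 gene that the rule names is not reported here.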

Additional observations from a re-analysis of the deposited data

How the results depend on the processing

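No paired analysis was possible because there is 1 group of 2 libraries. The median level of the Nduf genes (151 TPM) was 215 TPM by kallisto, 327 TPM when rescaled over nuclear protein-coding genes, and 136 to 165 TPM when a library was left out. The number at or above 1 TPM was 46 by kallisto and with either library left out, and 45 at a minimum of 5 TPM. The median log2 ratio (0.44) was 0.30 with total counts, 0.22 with spike-in totals, 0.45 with the summed count minimum at 1 and 0.48 with kallisto counts, and stayed at 0.43 to 0.45 with a minimum of 500, a prior count of 0.5 and DESeq2 size factors. The number past 1.5-fold (3, beside 7.55% of all genes) was 1 with total counts, 1 with spike-in totals and 6 with the minimum at 1. Of all genes, 5.19% passed it with total counts, 4.30% with spike-in totals and 19.7% with the minimum at 1. The ratio of Ndufaf8 changed sign with spike-in totals (-0.01), and no other gene's did under the alternatives run. The cause of these shifts was not tested, except that each scaling moves all genes together. The number with a top transcript under 90% (26) was 30 by kallisto and 24 to 26 with a library left out. Assembly factors and Ndufa4l2 rest on few counts, from 61 for Ndufa4l2 in replicate 1 to 882 for Ndufaf4 in replicate 2, which limits the precision of their ratios.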
